A study of Mus musculus with 6 samples.

Results

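The 6 libraries of an RNA sequencing series on mouse cortical neurons fell into 2 types of 3 libraries, and these types were compared here across classes of RNA. The type was read from the deposited lengths alone. The effective length is the number of positions at which a sequenced fragment can start on a transcript. In control 1, mutant 1 and mutant 2 it lay 249 bases under the length of every one of 50578 transcripts of at least 1000 bases. These are called the fixed-length libraries or set. In control 2, control 3 and mutant 3 the gap ranged from 133.7 to 139.2 bases and varied between transcripts and libraries, and these are called the estimated-length libraries or set. All 6 of the 6 libraries in the series were used, 3 of each type.

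The neurons were postmitotic cells of the embryonic day 14.5 cortex, from RP58+/+ animals (control, 3 libraries) and RP58-/- animals (mutant, 3 libraries). RP58, now named Zbtb18, is a zinc finger repressor that cortical neurons need to mature. Per the labels, all 6 libraries came from total RNA with the TruSeq Stranded Total RNA kit and a HiSeq 4000 sequencer. The labels do not mention the types, and no source used here says what set them apart, so the library type cannot be told apart from any other step that went with it. Whether libraries of a genotype are separate embryos is also not stated, so p-values measure the spread between these samples, which may be technical in part. Genotype was kept as a term in each fit, and differences are given as estimated-length minus fixed-length. Values for the 3 fixed-length libraries are always in the order control 1, mutant 1, mutant 2, and those for the 3 estimated-length libraries in the order control 2, control 3, mutant 3.

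RNAs of a cell differ in how their ends are made and where they reside. Most messenger RNAs carry a poly(A) tail and leave the nucleus, whereas the messengers of histones made during DNA replication end in a short stem-loop instead of a tail. The RNA components of the spliceosome, of RNase P and of the 7SK complex have no such tail, while several long noncoding RNAs and transcripts that keep an intron are found mainly in the nucleus. In neurons of the developing cortex, cell division has ended, and tubulins, translation factors and mitochondrial messengers are abundant.

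Total estimated counts were 34645505, 56472475 and 54078417 in the fixed-length libraries and 75892649, 46457653 and 53044306 in the estimated-length ones, so depth overlapped between the types. Zbtb18 was at 1900 CPM, the count per unit of normalized library size, in control 1, 46.6 in mutant 1, 45.6 in mutant 2, 1586 in control 2, 1695 in control 3 and 538 in mutant 3. Summed levels of 5 neuronal markers were between 5780 and 8178 CPM in the fixed-length libraries and between 4154 and 5627 in the others, and 3 of these markers were lower and 2 higher by the test given with the histones. Radial glia markers summed to 207–237 against 100–122 CPM, with 4 of 8 lower and none higher, and cycling-cell markers to 87.5–109 against 52.1–63.6 CPM, with 3 of 6 lower and 2 higher. Markers of erythroid cells summed to at most 20.4 CPM in any library, and those of interneurons, microglia, endothelium, mural cells, meninges and choroid plexus to at most 3.35 CPM each, and no marker was at 0 in every library. Of all genes tested, 32.1% were lower and 38.2% higher, and the types did not overlap for 2 of the 8 radial glia and 1 of the 6 cycling-cell markers, against 67.2% of all genes. Xist, the RNA of the inactive X chromosome, was at 0, 0.116 and 150 CPM in the fixed-length and 484, 1.52 and 576 CPM in the estimated-length libraries, and Kdm5d, on the Y chromosome, at 25.3, 26.7 and 0.03 against 0, 41.7 and 0.061 CPM. Each type and each genotype thus held libraries of both patterns, divided unevenly, with 2 Kdm5d-high libraries of the fixed-length type and 1 of the other. The part of sex and of cell makeup in the differences between the types was not tested.

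The division of counts between RNA classes differed between the types for most classes. Protein-coding genes outside the mitochondria and the histones took 86.5%, 86.7% and 88.0% of the counts in the fixed-length libraries and 68.0%, 68.2% and 67.8% in the estimated-length ones. The mitochondrial ribosomal RNAs took 0.123%, 0.0921% and 0.0631% against 15.9%, 15.6% and 14.8%. For both classes the types did not overlap, and the control and mutant libraries of a type lay on the same side. Long noncoding RNAs took 0.314%, 0.311% and 0.342% against 1.5%, 1.55% and 1.43%. The class that GENCODE calls misc_RNA, which holds the 7SK and signal recognition particle RNAs, took 0.00165%, 0.000636% and 0.00127% against 3.26%, 2.73% and 3.85%. The 13 messengers of the mitochondrial genome went the other way, with 4.89%, 5.06% and 3.52% against 1.65%, 1.61% and 1.64%. Each of these differences gave p = 0.1 in a two-sided exact permutation test of the 6 libraries, the smallest p that 3 against 3 allows.

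**Figure D1:**
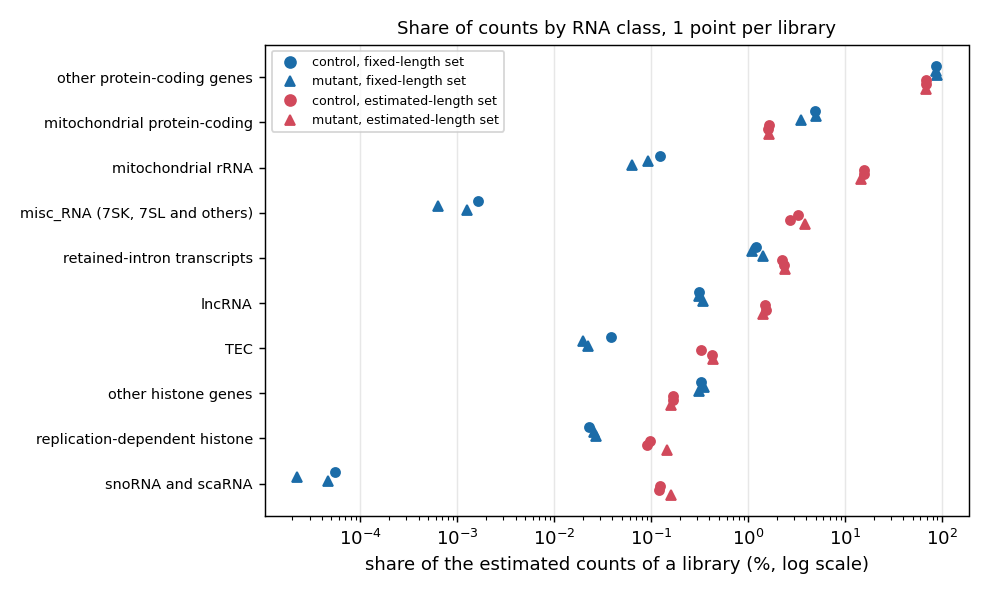
Percent of a library's estimated counts in each RNA class (log axis), with 1 point per library, circles for controls, triangles for mutants and color for the library type. Fixed-length libraries sit above the others for coding genes and mitochondrial messengers and far under them for mitochondrial ribosomal RNA, misc_RNA, and snoRNA and scaRNA.

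The shares depended on the unit. In the deposited TPM, transcripts under 250 bases held 71.7%, 77.4% and 75.6% of all units in the estimated-length libraries and 0.074%, 0.0451% and 0.0919% in the fixed-length ones. Of the counts, the same transcripts held 1.66%, 2.06% and 2.06% against at most 0.000675%. An 82-base transcript had an effective length of 2.86 bases in the fixed-length libraries and of 6.68 to 6.90 in the estimated-length ones, so each of its counts weighed heavily in TPM. All tests were therefore made on counts.

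The shortest RNAs had almost no counts in the fixed-length libraries. Of 5814 listed transcripts under 200 bases, 2750 had a count in the estimated-length libraries and 4 in the fixed-length ones. The shortest transcript with at least 10 counts was 227, 204 and 204 bases long in the fixed-length libraries and 53 bases in each of the others. Between 300 and 350 bases, 809 and 1415 of 2067 transcripts were counted, with a median effective length of 82 against 192.8 to 198.1 bases. Between 400 and 500 bases the share of counts was alike, at 0.582–0.669% against 0.615–0.623%. All 51 spliceosomal snRNA genes tested, which build the splicing machinery, were at 0 in every fixed-length library. So were 168 of 178 snoRNA and scaRNA genes, which guide chemical changes of other RNAs, and 157 of 158 miRNA genes. No fold is given for these classes, since transcripts of their length had almost no counts in 1 library type.

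Genes for replication-dependent histones, the core and linker histones that package new DNA in S phase, were far higher in the estimated-length libraries. Of 61 genes in the tables, 60 had a count and 57 could be tested with edgeR's quasi-likelihood test (Benjamini-Hochberg adjusted p under 0.05). Of the 57, 54 were higher, 1 was lower and 2 were not called, with a median log2 difference of 6.71. Over all 16985 genes tested, 70.2% were called, 38.2% as higher and 32.1% as lower, with a median of 0.11. That median moved between 0.10 and 0.20 with the scaling, and values are best read against it. Since 43 of the 57 passed the count filter through the estimated-length libraries alone, these had to be higher, and the counts are a description. With the 13 genes that had no count in the fixed-length libraries set to their lower bounds, the median was 6.73. Among 36 genes with a mean transcript length of at least 500 bases, 33 were higher and 1 was lower, with a median of 6.27.

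The stem-loop sites are shown for 4 genes that were near 0 in the fixed-length libraries, because the stem-loop replaces the tail in this class. In the annotated transcripts they are followed by 46, 33, 369 and 155 bases in Hist1h4h, Hist1h4f, Hist1h3e and Hist1h2bg, so not all lie at the annotated end. Sequences here are from GENCODE vM21 transcripts, on the strand of the transcript, 5′ to 3′. The capitals mark a match to GGNNCTTTTNNGNNCC, the outline of the histone stem-loop, and all 4 genes lie on chromosome 13.
Hist1h4h: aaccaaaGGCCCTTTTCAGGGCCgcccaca
Hist1h4f: tctcaaaGGCCCTTTTCAGGGCCacccact
Hist1h3e: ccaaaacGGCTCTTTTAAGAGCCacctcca
Hist1h2bg: acccaaaGGCTCTTTTCAGAGCCacccata
The pattern occurred in the last 100 bases of 24 of 43478 coding transcripts of the annotation (0.0552%), 21 of them replication-dependent histones. Anywhere in the transcript it occurred in 146 (0.336%), and 41 of these were such histones. By their most counted transcript, 38 of the 57 tested genes held it, of which 36 were higher and none lower, with a median of 6.72. Of the 19 without it, 18 were higher and 1 was lower, with a median of 6.32. Here too the counts are a description, as 43 of the 57 passed the filter through the estimated-length libraries alone.

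Hist1h4h, a gene for histone H4, was at 0.0635, 0.0386 and 0.0748 CPM in the fixed-length libraries and at 101, 88.9 and 152 CPM in the estimated-length ones. The types were far apart, and within each type control and mutant libraries lay on the same side. The log2 difference was 10.43 ± 0.18 (SE). Hist1h3e, a gene for histone H3, was at 0, 0.0386 and 0.0748 CPM against 32.3, 28.5 and 39.7 CPM. Its transcript shared 680 of 806 words of 31 bases with other genes, so its reads can be assigned to other histone genes. Summed with Hist1h3f, its closest neighbor in sequence, it was at 0.0318, 0.0386 and 0.0748 against 58.5, 53.3 and 78.0 CPM. Hist1h4j had no count in the fixed-length libraries and was at least 915-fold higher in the others, against a floor of 3 counts over the group, which covers counting error only.

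Most genes were higher in each of the 5 histone families. The 5 linker H1 genes were all higher, with a median log2 difference of 6.46, as were the 9 H3 genes (6.66) and the 11 H4 genes (8.99). Of 17 H2A genes 16 were higher, and of 15 H2B genes 13 were higher and 1 was lower. The limit set by the count filter, given above, holds for these counts as well.

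The 3 genes that were not higher had a poly(A) signal at the end of the transcript. Hist3h2a, an H2A gene, was at 141, 151 and 153 CPM against 147, 137 and 154 CPM. These ranges overlapped, and the log2 difference of 0.01 was not called (adjusted p = 0.923). Its transcript shared 679 words of 31 bases with Trim17, the neighboring gene, so the division of counts between them is uncertain. Summed with Trim17, Hist3h2a was at 144, 155 and 158 CPM against 152, 143 and 158 CPM, which overlapped as well. Hist3h2ba, an H2B gene, differed by 0.12 (adjusted p = 0.192). Hist2h2be, another H2B gene, was lower in the estimated-length libraries, at 20.4, 17.2 and 14.7 CPM against 11.3, 11.6 and 8.72 CPM. The types did not overlap, as for 67.2% of all genes tested, and the log2 difference was −0.85 ± 0.12 (adjusted p = 0.00083). Hist1h1c, a linker histone gene, also held a signal but was higher, with 17, 12.8 and 12.9 CPM against 99.7, 103 and 117 CPM (2.89 ± 0.14).

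The poly(A) signal, AATAAA or ATTAAA in the last 40 bases of the transcript, is shown in capitals for these genes and for Hist1h4h, which was higher although it held one.
Hist3h2a: atgcccAATAAAataagagtacgtgtataa
Hist2h2be: attattAATAAAgttaccgattagtttc
Hist1h1c: gcttctAATAAAaagcgtttagttttcatt
Hist1h4h: tttcttATTAAAagagcgaacatgtgtttt
Hist3h2a and Hist2h2be lie on chromosomes 11 and 3. The signal occurred in 53.9% of the 43478 coding transcripts (23450). Among the 57 histone genes, 46 had no signal at the end of their most counted transcript and all 46 were higher, with log2 differences between 0.55 and 9.87 and a median of 6.80. Of the 11 with a signal, 8 were higher and 1 was lower, with a median of 4.77, and Hist2h2be, Hist3h2a and Hist3h2ba were among the 11. The annotated end is not always the deposited one. Where the deposited and annotated lengths were equal, 25 of 25 genes without a signal (median 6.76) and 4 of 4 with one (median 6.55) were higher. These counts are a description, because 43 of the 57 genes passed the filter through the estimated-length libraries alone and had to be higher. Whether the signal goes with the difference was not tested.

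Histone genes outside the replication-dependent class, many of which make tailed messengers, showed no such excess. Of the 10 tested, 6 were lower in the estimated-length libraries, 1 was higher and 3 were not called, with a median of −0.91. H2afz, the gene for the variant H2A.Z, was at 245, 284 and 242 CPM against 116, 110 and 115 CPM. H3f3b, 1 of the genes for H3.3, was at 1190, 1315 and 1112 CPM against 662, 665 and 605 CPM. In both genes the types were well apart and in the reverse order to Hist1h4h. H2afy2, a gene for a macroH2A variant, was the member called as higher, by 0.75, although its types overlapped, at 12.6, 27.5 and 21.2 CPM against 26.6, 32.0 and 30.3 CPM. H2afx, whose messenger is known to end in either way, differed by 0.11 (adjusted p = 0.372), and its transcript held both the stem-loop pattern and a poly(A) signal.
H2afx, stem-loop: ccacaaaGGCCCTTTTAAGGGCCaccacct
H2afx, signal: aattttATTAAAggatcgtttggttttgtt

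**Figure D2:**
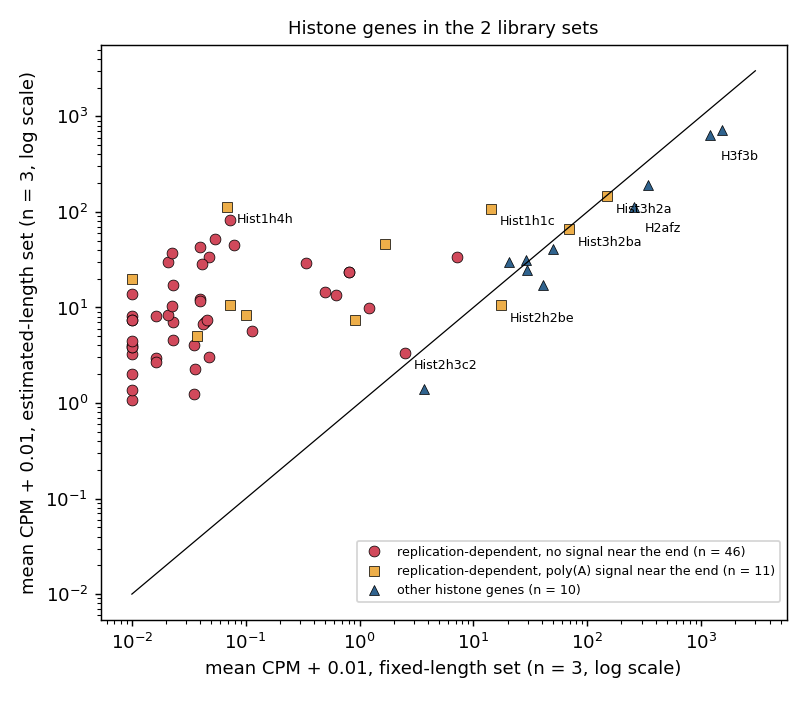
Mean CPM plus 0.01 of each tested histone gene in the 3 fixed-length libraries (x) and the 3 estimated-length libraries (y), on log axes with the line of equal levels. Circles and squares are replication-dependent genes without and with a poly(A) signal near the end and triangles are the other histone genes; the first 2 lie above the line except Hist3h2a, Hist3h2ba and Hist2h2be, which lie near it or under it.

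RNAs of stable ribonucleoprotein particles that were long enough to be counted were also near 0 in the fixed-length libraries. Scarna2, a guide RNA of 414 bases, was at 0.0953, 0.0193 and 0.0374 CPM against 422, 413 and 447 CPM. Terc, the 423-base RNA template of telomerase, was at 0, 0.0193 and 0.0374 CPM against 29.7, 26.7 and 26.2 CPM. Rpph1, the 319-base RNA of RNase P, was at 0.0635, 0.135 and 0.168 CPM against 2873, 2471 and 2961 CPM. Of its 289 words of 31 bases, 203 also occur in Ccnb1ip1, and the sum of both was 0.159, 0.347 and 0.374 against 2873, 2471 and 2962 CPM. In Scarna2, Terc and Rpph1 every fixed-length library was near 0 and every estimated-length library was not, in both genotypes. Rmrp, the 271-base RNA of RNase MRP, was at 0.0953, 0.0386 and 0.224 CPM against 1567, 1197 and 1742 CPM. Between 250 and 300 bases the median effective length was 32.1 against 141.6 to 146.4 bases. Of a list of 31 small stable RNAs, 27 were in the tables, and all 23 that could be tested were higher, of which 19 passed the filter through the estimated-length libraries alone. The last 30 bases of Rpph1 (chromosome 14), of Rmrp (chromosome 4) and of Rn7sk (chromosome 9), the 7SK RNA that holds back transcription elongation, are shown as transcripts with no poly(A) signal by the same search.
Rpph1: ataacccaattcagactactctcccccgcc
Rmrp: caaccacacggggctcattctcagcgcggc
Rn7sk: ggcgctgcatgtggcagtctgcctttcttt

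Long noncoding RNAs were mostly higher in the estimated-length libraries, but not all of them were. Of 1381 tested, 1029 were higher, 59 were lower and 293 were not called, and the median log2 difference was 2.46. Through the estimated-length libraries alone 595 of them had passed the filter. Without any filter 1269 of 2690 were higher and 79 lower, with a median of 1.29, and at 500 bases or more 912 of 1233 were higher and 55 lower (2.33). The 57 lncRNA genes of 4000 bases or more had a median of 2.01, with 42 higher and 1 lower.

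Malat1, a nuclear RNA found at speckles where splicing factors gather, was at 95.1, 99.1 and 91.4 CPM against 10480, 10950 and 8797 CPM. Its log2 difference was 6.67 ± 0.12. The annotated end of its transcript holds a poly(A) signal, and whether the RNA ended there or carried a tail was not tested.
Malat1: ttatgaAATAAAaactaaatatctctca
Neat1, the scaffold of nuclear paraspeckles, was at 0.381, 0.772 and 1.20 CPM against 5.0, 5.92 and 6.52 CPM (3.10 ± 0.33). C130071C03Rik, the host of the neural miRNA gene Mir9-2, was at 111, 106 and 125 CPM against 320, 321 and 294 CPM (1.44). In these 3 genes every estimated-length library lay above every fixed-length one. Meg3, an imprinted lncRNA, was at 6.99, 19.7 and 49.4 CPM against 46.8, 47.7 and 64.1 CPM. Mutant 2 lay within the range of the estimated-length libraries, and the log2 difference of 1.76 ± 0.54 (adjusted p = 0.0227) was no longer called without control 1 (0.89, adjusted p = 0.152) or without mutant 1 (1.58, adjusted p = 0.0626).

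Some lncRNAs went the other way or did not differ. Gas5, which carries snoRNAs in its introns, was at 147, 127 and 141 CPM against 137, 137 and 116 CPM, which overlapped (−0.15, adjusted p = 0.147). Tug1, a lncRNA of neural tissue, differed by −0.23 and was not called. Pantr1, a lncRNA next to Pou3f3, had a log2 difference of −1.21, and Snhg3, another snoRNA host, differed by −0.66. Of the 12 tested members of a list of nuclear and neural lncRNAs, 7 were higher and 1 was lower (median 2.08), and of 6 snoRNA hosts 3 were higher and 1 was lower.

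**Figure D3:**
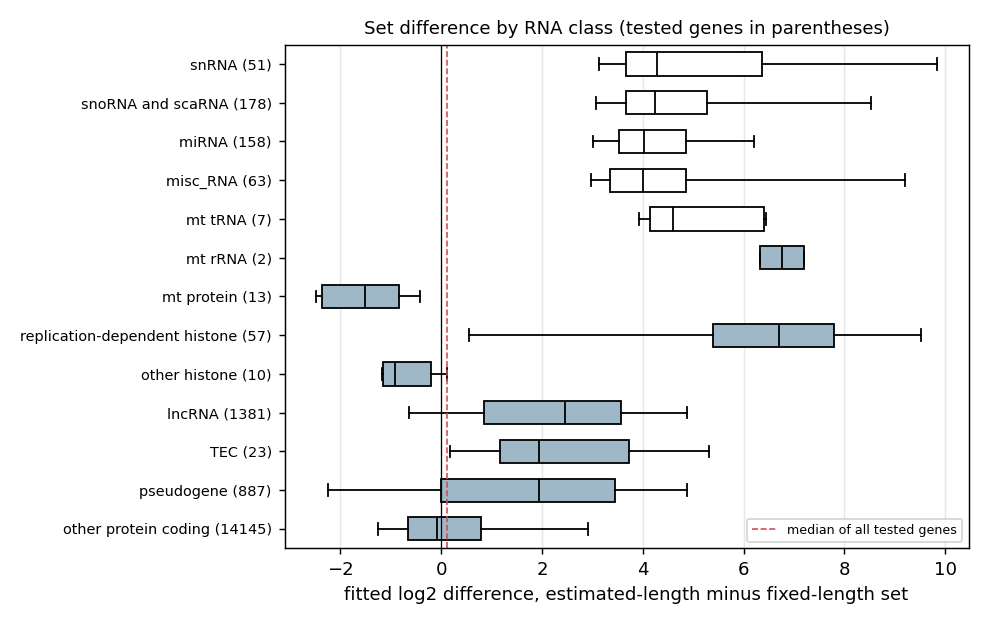
Fitted log2 difference between the library types (estimated-length minus fixed-length) per RNA class. Boxes span the quartiles with the median as a line, whiskers run from the 5th to the 95th percentile, the dashed line is the median of all tested genes, and white boxes are classes of short RNAs whose counts in the fixed-length libraries are limited by length. Replication-dependent histones and lncRNAs lie above the dashed line, and mitochondrial messengers and other histones lie under it.

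Within the mitochondrial genome, ribosomal RNAs and messengers moved in opposite directions. The 16S ribosomal RNA, mt-Rnr2, was at 945, 729 and 464 CPM against 160200, 150600 and 142300 CPM (7.63 ± 0.25), and the 12S ribosomal RNA, mt-Rnr1, at 411, 274 and 174 against 19150, 21120 and 15980 CPM (5.89 ± 0.24). The types were far apart in both. All 10 messengers with at least 500 bases were lower, with a median of −1.93. The other 3 are shorter, and of these mt-Nd3 and mt-Nd4l were not called (−0.43 each), while mt-Atp8, at 204 bases, is too short to compare. mt-Nd4, which encodes a subunit of respiratory complex I, was at 5170, 5909 and 3611 CPM against 524, 600 and 507 CPM (−3.22 ± 0.20). mt-Nd6, the only messenger encoded on the opposite strand to the others, was at 304, 294 and 196 CPM against 45.9, 58.0 and 45.5 CPM (−2.49 ± 0.18). mt-Co1, the catalytic subunit of complex IV, was lower by less, at 16830, 17350 and 11860 CPM against 7372, 6714 and 7028 CPM (−1.16 ± 0.16). In all 3 the fixed-length libraries were the higher ones, and mutant 2 was the lowest of them. The smallest difference among the 10 was −0.84 ± 0.19 for mt-Co3 (adjusted p = 0.00723), which was not called without control 1 (−0.65, adjusted p = 0.0906).

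For mt-Nd4, sequence shared with nuclear copies was counted. It held 846 of 1348 words of 31 bases in common with the nuclear copy Gm28439. No count was found for Gm28439 in any library, and whether it was among the transcripts counted was not checked. Lars2, the nuclear gene for the mitochondrial leucyl-tRNA synthetase, was at 1782, 711 and 656 CPM against 14940, 16590 and 16910 CPM (3.89 ± 0.33). AA474408, a gene of the annotation's class TEC, for models that await experimental support, was at 387, 170 and 177 CPM against 3613, 4560 and 4533 CPM (4.05 ± 0.30). Both had higher levels in each estimated-length library than in any fixed-length one, and they shared 26 words of 31 bases with each other.

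Among the remaining protein-coding genes the calls went in both directions. Of 14145 tested, 4372 were higher and 5261 lower, with a median of −0.07, which turned to 0.02 (4780 higher, 4779 lower) when the scaling was taken from coding genes only. Through the estimated-length libraries alone 844 of the 14145 had passed the filter and had to be higher. This limit also holds for the groups of coding genes by length and span given below. Abundant short messengers were on the lower side. Of 43 ribosomal protein genes, 38 were lower and 1 was higher, with a median of −1.08, and of 30 nuclear genes for oxidative phosphorylation subunits 29 were lower and 1 was higher (−0.90). Tuba1a, the main alpha-tubulin of young neurons, was at 25720, 18500 and 15870 CPM against 11310, 10370 and 7407 CPM (−1.23 ± 0.09). Eef1a1, which brings aminoacyl-tRNA to the ribosome, was at 12110, 11410 and 9776 CPM against 6560, 5936 and 5269 CPM (−0.98), and Tubb3, a neuron-specific beta-tubulin, at 3764, 3547 and 3063 CPM against 2065, 1901 and 1625 CPM (−0.97). For each of the 3, all fixed-length libraries were above all others, and mutant 3 was the lowest library.

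Messengers often used as references also differed. Of 10 on a list, 7 were lower, 1 was higher and 2 were not called, with a median of −0.98. Gapdh, of glycolysis, differed by −1.56, whereas Actb, beta-actin, was higher, at 2585, 2833 and 2238 CPM against 4820, 4398 and 3502 CPM (0.65 ± 0.14). These 2 references differed between the types in opposite directions.

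The differences among coding genes varied with transcript length. From 500 to 1000 bases, 153 of 817 genes were higher and 474 lower, with a median of −0.66. The median was −0.55 from 1000 to 2000 bases, −0.13 from 2000 to 4000 bases and 0.47 at 4000 bases or more, where 1967 of 3757 were higher and 598 lower. The genomic span of the gene went along with this. Genes of 300 kb or more had a median of 0.87 (298 of 514 higher, 59 lower). Within transcripts of 4000 bases or more, the median was 0.14 for spans of 10 to 30 kb and 1.02 for spans of 300 kb or more, of which 199 of 294 were higher and 19 lower. Map1b, which encodes a long microtubule-associated protein of growing axons, was at 1261, 1195 and 1220 CPM against 3929, 3887 and 3374 CPM (1.56 ± 0.08). Ptprd, a receptor phosphatase at synapses that spans a very long gene, was at 37.4, 16.8 and 26.1 CPM against 215, 207 and 124 CPM (2.51). In both genes the types were apart in each genotype. Of 27 genes on a list of long neuronal genes, 19 were higher and 4 lower (median 0.97), against 38.2% and 32.1% of all genes tested. The 4 lower ones were Dab1, Macrod2, Ntm and Fhit. The types did not overlap for 12 of the 27 (44.4%), against 67.2% of all genes, so Map1b and Ptprd do not stand for the whole list.

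**Figure D4:**
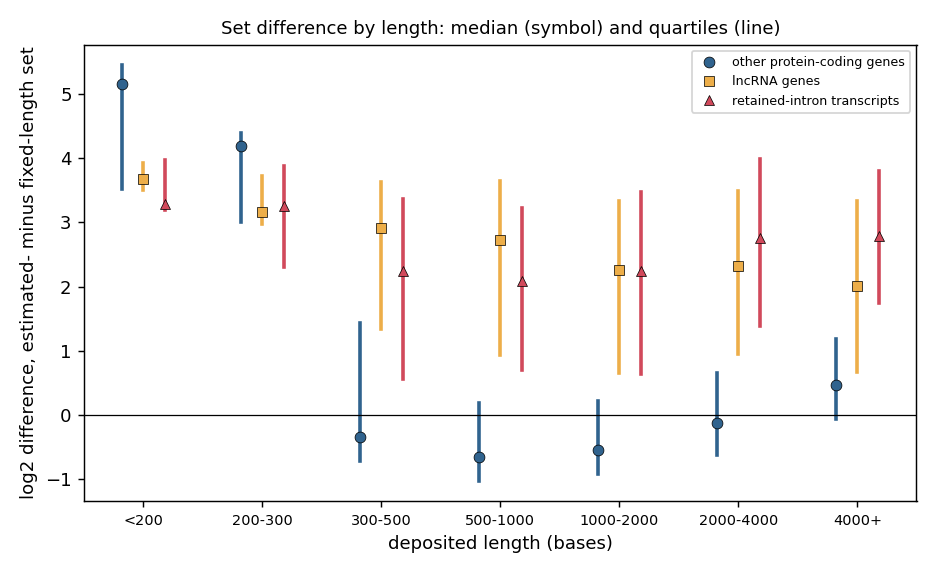
Log2 difference between the library types (estimated-length minus fixed-length) by deposited length in bases, with the median as a symbol and the quartiles as a line, for coding genes, lncRNA genes and retained-intron transcripts. Coding genes go from −0.66 at 500 to 1000 bases to 0.47 at 4000 bases or more, lncRNAs and retained-intron transcripts stay at 2 or above, and the 2 shortest bins hold only 12 and 9 coding genes.

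Transcripts that keep an intron were more abundant in the estimated-length libraries at the level of the whole library and of the gene. GENCODE types a transcript as retained_intron when it holds sequence that is intronic in other transcripts of its gene. These transcripts took 1.20%, 1.09% and 1.42% of counts against 2.22%, 2.36% and 2.43%. Of 7916 tested, 4566 were higher and 483 lower, with a median of 2.35. Transcripts could pass the count filter through the estimated-length libraries alone and then had to be higher. How many did so was not counted, so these numbers are a description. Over all 42824 transcripts tested, 59.7% were called, 36% as higher and 23.7% as lower, with a median of 0.58. Of 25054 protein_coding transcripts, 5969 were higher and 8526 lower (−0.23), and of 2183 transcripts marked for nonsense-mediated decay, which degrades messages with a premature stop, 648 were higher and 428 lower (0.46). At 4000 bases or more, 416 of 559 retained-intron transcripts were higher and 22 lower (2.79).

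The share of retained-intron transcripts within a gene was tested with edgeR's diffSpliceDGE, which is free of changes in the gene's total. Over 3877 genes, 82.5% were called, 77% with a higher and 5.44% with a lower share in the estimated-length libraries. The retained-intron counts of a gene could likewise pass the filter through the estimated-length libraries alone, so these percentages are a description too. The median share of a gene was 1.30%, 1.36% and 2.33% in the fixed-length libraries and 8.89%, 9.33% and 9.85% in the others. On simulated counts of 3888 genes, 66, 67 and 67 genes had their share changed by 1, 2 and 3 log2 units. The diffSpliceDGE test recovered 40, 67 and 67 of them and made 54 false calls. These false calls were a larger part of its calls than the cut on the adjusted p allows. Limma on the log2 ratio recovered 23, 58 and 66 of the changed genes and made 9 false calls. With limma 3158 genes were called here, against 3198 with diffSpliceDGE.

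Splicing regulators, many of which are known to keep introns in part of their transcripts, went in the majority direction. Of 16 tested, 14 had a higher share and none a lower one, at a median of 2.71 on the log2 scale, against 2.63 for all genes. Rbm39, a splicing factor of the SR-related group, had shares of 0.437%, 0.611% and 1.05% against 23.8%, 24.8% and 23.2%. Clk1, a kinase of SR proteins, had 8.09%, 15.7% and 15.0% against 44.4%, 50.3% and 45.2%. Srsf5, an SR protein, had 2.12%, 3.22% and 6.70% against 26.5%, 29.9% and 39.5%. All 3 separated the types completely, with log2 differences in the ratio of 5.51, 2.74 and 3.85. Srsf2 (0.63, adjusted p = 0.218) and Son (0.75, adjusted p = 0.217), which are both part of nuclear speckles, were not called.

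**Figure D5:**
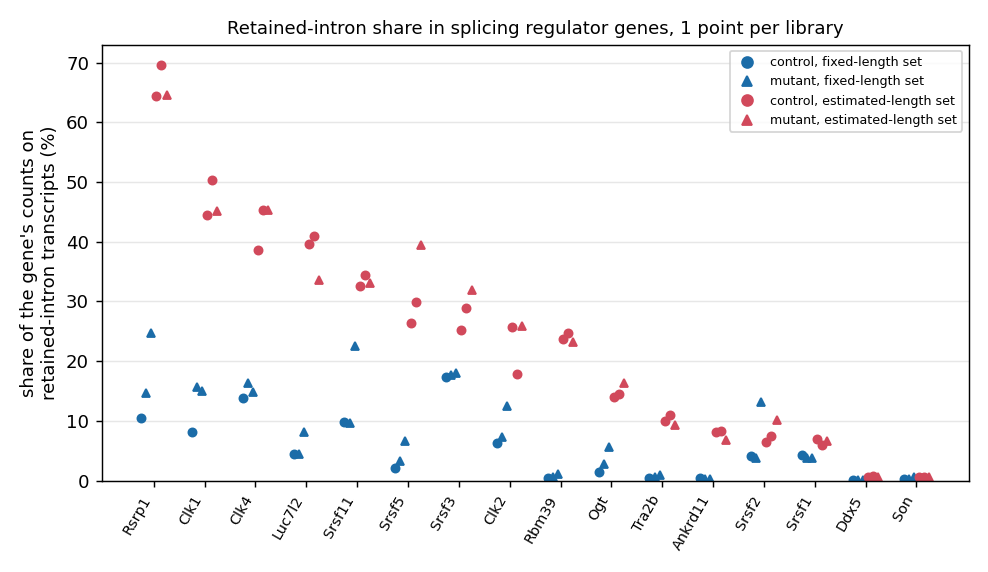
Percent of a gene's counts on retained-intron transcripts for the 16 tested splicing regulators, with 1 point per library, circles for controls, triangles for mutants and color for the library type. Estimated-length libraries lie above all fixed-length ones in Rbm39, Clk1 and Srsf5, while in Srsf2 and Son the types overlap.

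The gene total and its intron-keeping share could differ in unlike ways. Gas5, whose total overlapped between the types, had shares of 17.3%, 17.7% and 29.0% against 75.1%, 75.9% and 73.6% (3.52, adjusted p = 2.44e-06). Nfib, a transcription factor of cortical development, had 1.02%, 0.824% and 1.38% against 11.3%, 11.4% and 11.9% (3.62) and a total that was higher by 0.91. Chd3, a chromatin remodeler, went the other way, with 15.7%, 17.6% and 18.5% against 2.33%, 3.34% and 2.75% (−2.82). In this gene every fixed-length library lay above every estimated-length one. Uchl1, a neuronal deubiquitinase, had 80.4%, 46.0% and 38.3% against 42.9%, 45.6% and 42.0%. Its call (−1.19, adjusted p = 0.0343) was lost without control 1, where the difference was −0.00 (adjusted p = 0.992). It was also lost without control 2, control 3 or mutant 1 (adjusted p = 0.0877, 0.0889 and 0.068 by diffSpliceDGE). With limma on the log2 ratio of all 6 libraries it was not called either (adjusted p = 0.057).

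For some genes that share much sequence, the sum over the genes differed less between the types than a single gene did. Of 7 ribosomal protein genes that shared most of their words of 31 bases with partners, this held for Rpl10, Rpl13, Rpl27 and Rps27. For Rps6 and Rps24 the sum was still 4.23-fold and 11.5-fold higher in the fixed-length libraries. Rps4x was 24.4-fold higher there, and its sum could not change, since no count was found for its partner Gm9616. Rpl5 and Rps16 shared 49.0% and 44.5% of their words with other genes. Summed with their closest partner they were 2.1-fold and 3.71-fold higher in the fixed-length libraries, against 3.59-fold and 3.76-fold alone. Rps27, a ribosomal protein gene, was 11.1-fold higher in the fixed-length libraries, and its transcript shared 311 of 315 words of 31 bases with Rps27rt. Summed, the pair was at 210, 190 and 167 CPM against 207, 194 and 210 CPM, which overlapped. Rpl13, the only member of its list that was higher in the estimated-length libraries, shared 606 of 750 words with the pseudogene Gm12918. Gm12918 was at 183, 161 and 138 CPM against values of at most 0.0008 CPM, and the sum of both was 392, 373 and 330 against 426, 403 and 354 CPM, a ratio of 1.08. For Tuba1a the sum over 5 genes that share most of its words, itself included, changed little, with 2.10-fold against 2.07-fold for the gene alone. These genes were looked up after their values had been seen.

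Among genes with transcripts of at least 500 bases and a level of at least 10 CPM, 3 had counts almost only in the estimated-length libraries and 3 only in the fixed-length ones. Of the 3 described here, Mtss1 and Lonp1 shared no word of 31 bases with another gene, and Plxna4 shared 19 of 12847. Mtss1, an actin and membrane regulator, had 3266, 5686 and 7127 counts in the fixed-length libraries and 0 in every other. Over its transcripts that matched the annotation it was thus at least 6120-fold higher there. Lonp1, a protease of the mitochondrial matrix, had at most 0.2 counts against 3617, 2128 and 2475, and Plxna4, a semaphorin receptor of axon guidance, had 0 counts against 5393, 3205 and 9578 and was at least 5320-fold higher. Gene sums leave out transcripts that did not match the annotation, so counts of these genes on such transcripts would not show. The search for shared words did not cover them or other transcripts of the same gene. Absence of the whole gene from a library type was therefore not shown. Among transcripts of at least 500 bases and 10 CPM, 130 that matched the annotation and 56 that did not were present in the estimated-length libraries only, and 69 and 62 in the fixed-length ones only. Of the genes, 8 had a transcript of each kind.

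The 2 genotypes each hold both types, and their differences between types share no library. Estimated within controls (1 fixed-length against 2 estimated-length libraries), 60.6% of genes were called, and within mutants (2 against 1) 60.5%, with the spread pooled over the 4 groups, so that a lone library is assumed to vary like the others. The log2 differences had the same sign in 89% of the 16985 genes. Their Spearman correlation was 0.90 and their Pearson correlation 0.91 across genes, which are not independent replicates. Of these genes, 2358 passed the count filter through the estimated-length libraries alone and had to be higher there in both genotypes, so these values are a description. The difference between genotypes itself was called in 26 genes (0.153%), with 1222 genes at an unadjusted p under 0.05.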

How the data were processed

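Per the labels' protocols, all libraries were made with a stranded total RNA kit. Per the submitters' processing notes, FastQC, kallisto and the mm9 build were used, with no versions. The strand setting of the counting was not given in the sources used here, so counts of antisense and overlapping genes are uncertain. The authors deposited, per library, estimated counts for 97251 transcripts with length, effective length and TPM (the estimated counts divided by effective length and scaled to a fixed total). Of these transcripts, 84637 (87.0%) matched GENCODE vM21, whose build is later than mm9, so no coordinates are given. The 12614 others took 6.85% to 8.58% of counts and stayed out of gene tests.

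Estimated counts were summed to 34289 genes, rounded and tested with edgeR 4.0.16 in R 4.3.3 (TMM, filterByExpr, prior count 2, terms for genotype and library type), and calls used a Benjamini-Hochberg adjusted p under 0.05. The filter passed 16985 genes, 2358 of them through the estimated-length libraries alone. No 2 libraries agreed within sampling noise, with a chi-square per degree of freedom of at least 18.1. On simulated counts of 16985 genes, 66, 67 and 67 genes were changed by 1, 2 and 3 log2 units. The gene test recovered 72.7%, 97% and 100% of them (48, 65 and 67). It made 19 false calls, a larger part of its calls than the cut of 0.05 allows. In the data 70.2% of genes were called, so the simulation does not show how the test performs when most genes differ. Alternatives used DESeq2 1.42.0 and limma 3.58.1. Named genes were those on prepared lists, the 3 most abundant called genes per class and direction, the 4 largest differences among lncRNA, histone and other coding genes, and the 5 genes per direction with the most retained-intron counts. Members, lists and tests were chosen with earlier results of these data known. Genes in the passages on shared words and on presence or absence were chosen after their values were seen, as were 5 added alternatives. Some genes that the rule takes in are not reported here.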

Additional observations from a re-analysis of the deposited data

Results flagged for a closer look

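The difference between the library types itself differed between controls and mutants in 26 genes by the interaction contrast of edgeR's quasi-likelihood fit (adjusted p under 0.05, 0.153% of genes tested). Several of these were at 0 in control 1 alone. Zc3h12c, a zinc finger protein gene, was at 0, 15.9 and 19.3 CPM in control 1, mutant 1 and mutant 2 and at 27.6, 25.9 and 58.2 CPM in control 2, control 3 and mutant 3. Lyst, a regulator of lysosome size, was at 0, 3.43 and 4.24 against 57.7, 55.0 and 49.3 CPM. Zbtb18, the deleted gene, was among the 26, with levels given in the report. Syn1, a synaptic vesicle protein gene, was at 7.88, 73.9 and 81.0 against 35.5, 39.7 and 38.5 CPM.

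Rn7s1, an RNA of the signal recognition particle, had log2 differences of 9.66 in controls and 18.01 in mutants, −8.36 apart. It was at 11.1, 0 and 0 CPM against 10060, 7938 and 10700 CPM, while Rn7s2, which holds the same 270 words of 31 bases, was at 0, 2.28 and 4.39 CPM against the same levels, so the sum of both was above 0 in every library.

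Transcripts that did not match the annotation, which no gene test used, took up to 8.58% of the counts of a library. In TPM they took 7.38% to 8.31% of the fixed-length libraries and 70.7% to 76.5% of the estimated-length ones. An unmatched 82-base transcript alone had 659211, 502085 and 538784 counts in the estimated-length libraries and 0 in the fixed-length ones.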

How the results depend on the processing

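The number of genes called was 11930, and between 10477 and 13068 with 1 library left out (5905 to 7254 higher, 4572 to 5814 lower). Transcripts called went from 17143 to 27162 around 25573, and retained-intron shares from 2905 to 3438 around 3198. With retained-intron and other transcripts of at least 1000 bases, fewer genes could be tested and 2006 were called. The difference between genotypes was called in 4 genes with total-count scaling against 26, and the cause was not tested. Without 1 library, differences in percentage points of counts were 1.14 to 1.20 for lncRNAs, 3.0 to 3.55 for misc_RNA, −3.34 to −2.57 for mitochondrial messengers, 15.1 to 15.7 for mitochondrial ribosomal RNA and −19.4 to −18.6 for other coding genes. Over the counts joined to genes, mitochondrial ribosomal RNA differed by 16.7 and lncRNAs by 1.28 points. As shares of TPM, whose units went mostly to transcripts under 250 bases in the estimated-length libraries, mitochondrial ribosomal RNA differed by 3.91, mitochondrial messengers by −8.32, misc_RNA by 6.48, other coding genes by −68.0 and lncRNAs by −0.19, which reversed. The log2 difference of H2afx ranged from −0.00275 (without control 1, adjusted p = 0.989) to 0.224 with 1 library left out and so reversed, and so did the retained-intron share of Hnrnpk with transcripts of at least 1000 bases (2.61, adjusted p = 0.000111, against −0.56, adjusted p = 0.00204); the cause was not tested. Of 1470 recomputed values of 112 named results, 1431 kept direction and call, 28 lost the call, 9 gained it and 2 reversed. No paired analysis was possible because replicate numbers follow the order of deposition and pair nothing. Differences of genes under about 350 bases are limited by effective length, and with 3 libraries per type the exact test of shares cannot pass 0.05.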
